A study of Mus musculus with 8 samples.

Results

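The genes examined here comprised 8 mouse genes of retinoic acid (RA) metabolism and RA response, chosen by name from the 36047 genes that the measured transcripts belong to. Of these, 4 remove or store retinoids (Cyp26a1, Cyp26b1, Dhrs3 and Lrat) and 4 are known as genes that RA induces in one tissue or another (Tgm2, Rarres2, Nrip1 and Zbtb16). RNA came from muscle stem cells (MuSCs) of male Pax7-nTnG mice aged 5 to 6 months, in which tamoxifen activates a Cre recombinase expressed from the Pax7 locus and so switches on a nuclear green fluorescent protein in Pax7-expressing cells. Mice of both groups carried this reporter and received tamoxifen. The VA-free group (3 mice) ate a diet lacking vitamin A (VA) for 8 weeks, and the control group (2 mice) ate normal chow, so that any other difference between the diets cannot be told apart from VA. Cells positive for nuclear fluorescence were sorted from gastrocnemius and quadriceps muscles, and RNA of a mouse was split into technical libraries A and B, of which 8 were analysed: 1B, 2A, 3A and 3B for VA-free mice 1 to 3, and 1A, 1B, 2A and 2B for control mice 1 and 2. The reporter marks cells in which Cre acted and their progeny, whatever these express later.

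Retinol, the circulating form of VA, is oxidised to retinal and then to RA, which binds RA receptors (RARs) paired with retinoid X receptors (RXRs) on DNA. The receptor pairs sit on direct repeats of a short half-site and switch from a repressed to an active state when RA is bound. Cells hold RA in check by feedback: CYP26 enzymes hydroxylate RA, DHRS3 returns retinal to retinol, and LRAT esterifies retinol for storage. Genes for these enzymes are themselves induced by RA in many tissues, and Cyp26a1 is widely used as a readout of RA receptor activity.

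In the VA-free MuSCs, 2 of the 8 genes fell and 1 rose past an adjusted p of 0.05 in edgeR's quasi-likelihood test over mice. Rarres2, which encodes the secreted chemoattractant and adipokine chemerin, was 2.27-fold lower, and Dhrs3, the retinal reductase, was 1.87-fold lower. Nrip1, which encodes the nuclear receptor corepressor RIP140, was 1.68-fold higher. Cyp26a1, Cyp26b1, Lrat, Tgm2 and Zbtb16 did not pass the test. These calls were made among 17997 genes tested, of which 22.5% were called lower and 18.9% higher, so 2 lower and 1 higher of 8 is near the share over all genes.

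Every library held between 44831232 and 88650428 estimated counts. Control library 2A stood apart: over all genes tested its log2(CPM + 1) values, where CPM is the count scaled to library size, differed from those of library 2B of the same mouse by a root mean square of 0.871, against 0.459 for control libraries 1A and 1B and 0.229 for VA-free libraries 3A and 3B. Every pair of libraries differed by more than sampling noise, so none was counted as a duplicate, and libraries of a mouse were added before any test. Results below are therefore given with and without library 2A. Gene length also went with the comparison. Across the 17997 genes the log2 fold change (VA-free over control) had a Spearman rho of 0.371 with effective length, and the log2 ratio of control libraries 2A to 2B had one of -0.315, both descriptions across genes that are not independent replicates. Among the shortest 3600 genes 41.6% were called lower and 2.31% higher, whereas among the longest 3600 genes 9.83% were called lower and 39.1% higher.

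Markers of the sorted cells and of their neighbours differed between diets as well. Of 12 MuSC markers 11 rose, and their summed level was 7701 to 8573 CPM in VA-free libraries and 2948 to 5044 CPM in control libraries; Pax7 itself was at 132 CPM against 78.1 CPM on average. Without control library 2B, 7 of the 12 were called higher, and Pax7 was not among them (log2 fold change 0.85, edgeR adjusted p = 0.0537). Over all genes, that fit called 1613 of 17769 higher and 2863 lower, against 3403 and 4056 of 17997 with all libraries. Once the length trend of each mouse was removed, 10 of the 12 were called higher, again without Pax7 (0.17, adjusted p = 0.497). All 10 endothelial markers fell, with sums of 248 to 331 CPM against 1171 to 3041 CPM. Of 7 tenocyte markers 6 fell (40.1 to 67.5 CPM against 683 to 1199 CPM), as did 6 of 7 Schwann cell markers (37.8 to 49.8 CPM against 263 to 600 CPM), 6 of 10 pericyte and smooth muscle markers (1733 to 2019 CPM against 2756 to 3371 CPM, 1 higher), 4 of 10 macrophage markers (26.8 to 145 CPM against 188 to 928 CPM), and 5 of 10 myofiber markers (330 to 425 CPM against 458 to 548 CPM). Of 10 markers of fibro-adipogenic progenitors 6 fell and 1, Col3a1, rose, and their sum, most of it Col3a1 and Gsn, was 16790 to 19090 CPM against 8888 to 15160 CPM. No marker was at 0 in every VA-free library, and 1 each of the macrophage (Fcgr1), tenocyte (Kera) and Schwann cell (Cdh19) markers was at 0 in some library. Without control library 2A, 11 of the 12 MuSC markers were again called higher. The counts called lower were then 7 each for fibro-adipogenic progenitor, Schwann cell, and pericyte and smooth muscle markers. They were 6 for myofiber markers and unchanged for the other lists. Without control library 2B, the counts called lower were 4 for pericyte and smooth muscle, 2 for macrophage and 3 for myofiber markers, while those of the endothelial, tenocyte, Schwann cell and fibro-adipogenic progenitor lists changed by 0 or 1. In bulk RNA, fewer cells of a type cannot be told apart from less RNA per cell, and the part of these cells in the results on the 8 genes was not tested.

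**Figure D1:**
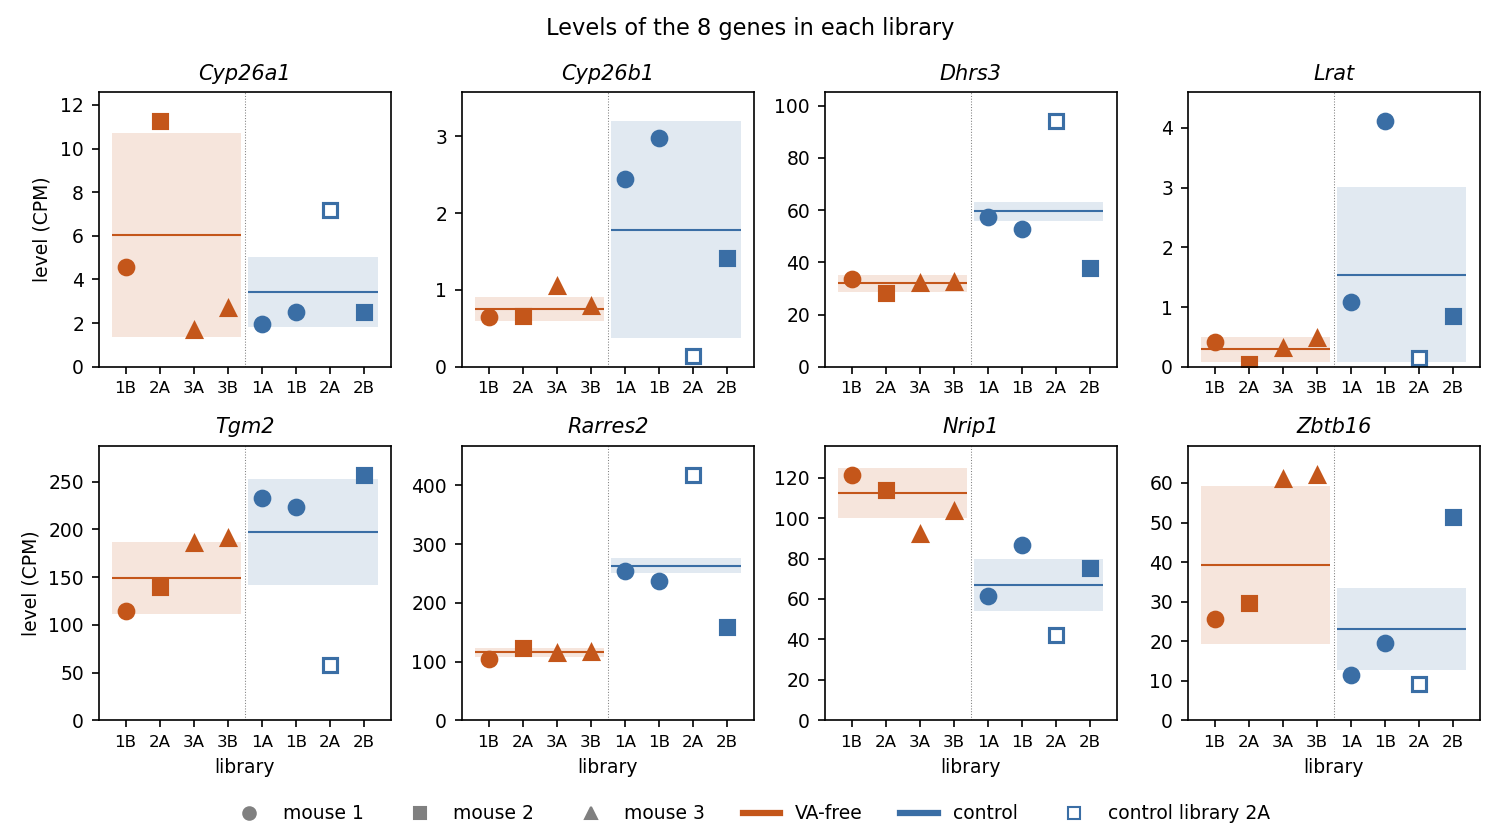
Level of each gene in each library, in CPM scaled by the trimmed mean of M-values, with VA-free libraries in orange and control libraries in blue; the symbol gives the mouse, the open square is control library 2A, and lines and bands are the mean and SD over mice (n = 3 VA-free, n = 2 control). The 4 VA-free libraries lie below all control libraries for Dhrs3 and Rarres2 and above them for Nrip1, and overlap with them for the other genes.

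Levels of different genes were compared on the deposited TPM scale, which corrects for transcript length. Rarres2 was the most abundant of the 8 in both groups, at 311 ± 17.3 TPM (SD, n = 3) in VA-free and 515 ± 33.3 TPM (SD, n = 2) in control MuSCs. In VA-free MuSCs it was followed by Tgm2 (82.7 ± 15.1 TPM), Nrip1 (60.8 ± 9.48 TPM), Dhrs3 (40.6 ± 4.86 TPM), Zbtb16 (25.5 ± 12.7 TPM), Cyp26a1 (7.86 ± 6.61 TPM), Cyp26b1 (0.499 ± 0.110 TPM) and Lrat (0.101 ± 0.0718 TPM). Here the means of Tgm2 and Nrip1, of Dhrs3 and Zbtb16, and of Zbtb16 and Cyp26a1 lay closer together than the sum of their SDs. In control MuSCs the order after Rarres2 was Tgm2 (83.7 ± 20.3 TPM), Dhrs3 (57.6 ± 3.89 TPM), Nrip1 (24.8 ± 5.45 TPM), Zbtb16 (11.2 ± 5.18 TPM), Cyp26a1 (3.07 ± 1.08 TPM), Cyp26b1 (0.633 ± 0.518 TPM) and Lrat (0.400 ± 0.376 TPM), and only Cyp26b1 and Lrat were closer than the sum of their SDs. Nrip1 thus stood above Dhrs3 on the VA-free diet and below it on the control diet. The genes of RA degradation and retinol storage were the least abundant of the set in both groups.

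Cyp26a1 encodes the main inducible RA hydroxylase and lies on chromosome 19 (GRCm38 chr19:37697798-37701536, plus strand, ENSMUSG00000024987). It was at 4.57, 11.2, 1.67 and 2.68 CPM in VA-free libraries 1B, 2A, 3A and 3B, and at 1.94, 2.52, 7.19 and 2.52 CPM in control libraries 1A, 1B, 2A and 2B. The groups overlapped, the highest library being that of VA-free mouse 2 and the next control library 2A. Averaged over mice the level was 6.06 ± 4.68 CPM (SD, n = 3) against 3.43 ± 1.61 CPM (SD, n = 2), and the log2 fold change was 0.81 (SE 0.67, edgeR adjusted p = 0.377). Without VA-free mouse 2 the log2 fold change was 0.008, and without control library 2A it was 1.33, neither past the threshold. VA-free mouse 2 also had the highest macrophage marker sum of the VA-free libraries (145 CPM against 26.8 to 68.2 CPM). Macrophages were not alone in this. Among VA-free libraries its endothelial sum (331 CPM against 248 to 309 CPM) and fibro-adipogenic progenitor sum (19090 CPM against 16790 to 18440 CPM) were also highest. Its tenocyte, Schwann cell and myofiber sums were the lowest. All control libraries had higher macrophage sums, at 220, 188, 928 and 680 CPM in 1A, 1B, 2A and 2B. Beside these, Cyp26a1 was at 1.94, 2.52, 7.19 and 2.52 CPM. The part of RNA from macrophages or the other cell types in the Cyp26a1 levels was not tested. Most Cyp26a1 counts were on the protein-coding transcript Cyp26a1-201 (74.4% or more in every library), the remainder on a transcript that retains an intron.

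The Cyp26a1 promoter is shown because it was the only one among the promoters of these genes to hold a direct repeat of the kind that RA receptors bind. The half-sites searched, on both strands, were NGNTCA with A or G at the first N and G or T at the other, as direct repeats spaced by 1, 2 or 5 bases (DR1, DR2 and DR5), in windows from 250 bases before to 50 bases after a RefSeq start (GRCm38.p6). A DR5 was found on the minus strand relative to the gene, 32 to 16 bases before the start. The 250 bases upstream of that start, chr19:37697558-37697807 on the plus strand, read as follows, with both half-sites in capitals.
Cyp26a1: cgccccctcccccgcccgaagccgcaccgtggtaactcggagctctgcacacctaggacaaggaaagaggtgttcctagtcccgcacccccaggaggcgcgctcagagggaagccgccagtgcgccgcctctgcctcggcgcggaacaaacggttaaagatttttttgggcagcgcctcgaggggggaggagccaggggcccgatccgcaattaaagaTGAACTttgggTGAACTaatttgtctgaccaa
Over 32851 promoters of the same length, 0.0974% held a DR5, 0.268% a DR2 and 0.222% a DR1, and 43.7% held a half-site of any kind. Promoters were matched for 5 of the 8 genes, with 8 windows in all (3 for Dhrs3, 2 for Nrip1, 1 each for Cyp26a1, Cyp26b1 and Lrat), and none was matched for Tgm2, Rarres2 or Zbtb16. The windows of Cyp26b1, Dhrs3 and Lrat held none of the half-sites searched, which says only that these letters are not in these windows.

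Cyp26b1, the second RA hydroxylase of the family, lies on the minus strand of chromosome 6 (GRCm38 chr6:84571414-84593908, ENSMUSG00000063415). Its levels were 0.651, 0.662, 1.06 and 0.785 CPM in the VA-free libraries and 2.44, 2.97, 0.146 and 1.41 CPM in the control libraries, in the order given above. Control library 2A, with 7 counts, was the lowest of all 8, whereas the other 3 control libraries were above every VA-free library. The mean was 0.752 ± 0.151 CPM (SD, n = 3) against 1.78 ± 1.41 CPM (SD, n = 2), with a log2 fold change of -1.24 (SE 0.58, edgeR adjusted p = 0.132). Without control library 2A it was -1.48 and past the threshold (adjusted p = 0.0335), without control mouse 2 it was -1.89 (adjusted p = 0.0176), and without control mouse 1 it was -0.07. The call thus depended on which control libraries were kept. The size of the change also moved with the handling of length. It was -0.75 (edgeR adjusted p = 0.381) with average transcript length offsets and -1.63 (0.068) with the length trend removed. On TPM with a pseudocount of 0.1 it was -0.10, where the median of all genes was 0.354. Counts of Cyp26b1 moved between transcripts from library to library, and at 7 to 131 counts in a library no share of a transcript is given.

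Dhrs3 (GRCm38 chr4:144892827-144928209, plus strand, ENSMUSG00000066026), the retinal reductase that lowers the substrate available for RA synthesis, was one of the genes that fell. It stood at 33.8, 28.4, 32.1 and 32.5 CPM in the VA-free libraries and at 57.5, 52.7, 94.0 and 37.9 CPM in the control libraries. All 4 VA-free libraries were below all 4 control libraries, as they were for 21.5% of all genes tested, and the nearest control library was 2B. On the TPM scale the groups overlapped, control library 2B being at 41.1 TPM and the VA-free libraries at 35.7 to 45.4 TPM. The mean was 31.9 ± 3.11 CPM (SD, n = 3) against 59.7 ± 3.63 CPM (SD, n = 2), which gave a log2 fold change of -0.90 (SE 0.13, edgeR adjusted p = 0.00194). Control mice 1 and 2 were close, at 57.1 and 62.2 CPM, beside a 2.48-fold difference between libraries 2A and 2B of mouse 2 (95% interval for counting error 2.35 to 2.61). Leaving out library 2A gave -0.58 (adjusted p = 0.0455) and leaving out library 2B gave -1.27. The leading transcript was Dhrs3-207, with 48.4% to 71.8% of the counts in a library, followed by Dhrs3-201, annotated as subject to nonsense-mediated decay, with 21.5% to 37.2%.

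Lrat encodes lecithin retinol acyltransferase, which makes the retinyl esters in which VA is stored, and has 1 annotated transcript on the minus strand of chromosome 3 (GRCm38 chr3:82892579-82903973, ENSMUSG00000028003). It was the rarest of the 8 genes, with 39, 3, 14 and 24 counts in the VA-free libraries and 55, 181, 7 and 46 counts in the control libraries. On the CPM scale these were 0.416, 0.0537, 0.308 and 0.483 against 1.09, 4.11, 0.146 and 0.853. The VA-free mice were all below the control mice, but control library 2A was within the VA-free range, and the highest value was that of control library 1B, 3.76-fold above library 1A of the same mouse (95% interval for counting error 2.77 to 5.19). The log2 fold change of -2.35 (SE 0.94) did not pass the test (edgeR adjusted p = 0.0857). It passed with DESeq2 (-2.39, adjusted p = 0.0406) and without control library 2A (-2.52, adjusted p = 0.0476), and was -0.74 without control mouse 1.

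Tgm2 encodes tissue transglutaminase, a protein-crosslinking enzyme induced by RA in myeloid and other cells (GRCm38 chr2:158116402-158146436, minus strand, ENSMUSG00000037820). Values were 115, 140, 185 and 191 CPM in the VA-free libraries and 233, 224, 58.1 and 257 CPM in the control libraries. Control library 2A was the lowest of all 8 and every other control library was above every VA-free library. The mean was 149 ± 37.6 CPM (SD, n = 3) against 197 ± 55.7 CPM (SD, n = 2). The log2 fold change of -0.40 did not pass (SE 0.25, edgeR adjusted p = 0.242). Control mice 1 and 2 were at 236.5 and 157.7 CPM, where mouse 2 joins libraries at 58.1 and 257 CPM. The control SD thus holds a difference between technical libraries. Without control library 2A the log2 fold change was -0.73 and passed (adjusted p = 0.0237), and without library 2B of the same mouse it was 0.005. Between 95.96% and 99.1% of its counts in a library were on Tgm2-201. Exons of Rprd1b (27.7 to 72.4 CPM) on the opposite strand overlap those of Tgm2 over 370 bases, and the libraries did not mark strand.

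Rarres2 (GRCm38 chr6:48569696-48572789, minus strand, ENSMUSG00000009281) had the smallest adjusted p of the 8 genes and, among those called, the widest change. It was at 105, 123, 114 and 117 CPM in the VA-free libraries and at 254, 236, 417 and 159 CPM in the control libraries. The VA-free libraries lay in a narrow band below every control library, of which 2B was the closest. The mean of 116 ± 7.85 CPM (SD, n = 3) was lower than that of 263 ± 12.6 CPM (SD, n = 2), with a log2 fold change of -1.18 (SE 0.11, edgeR adjusted p = 0.000482). Control mice 1 and 2 were close, at 253.9 and 271.8 CPM, where mouse 2 joins libraries at 417 and 159 CPM. The small control SD thus does not show that these libraries were alike. Leaving out control library 2A gave -0.84 (edgeR adjusted p = 0.0121) and leaving out 2B gave -1.56 (0.0134), past the threshold both times. With a mean effective length of 672 bases it was shorter than most genes (percentile 8.13 of those tested), and after the length trend of each mouse was removed its log2 fold change was -0.50 (adjusted p = 0.0244). Lrrc61, on the opposite strand, shares 892 exonic bases with Rarres2 and was measured at 6.94 to 10.2 CPM. Counts were spread over 4 protein-coding transcripts of 672 to 795 bases, of which Rarres2-204 held 31.4% to 48.9% and was the largest in every library but VA-free 1B, where Rarres2-201 held 36.1%.

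**Figure D2:**
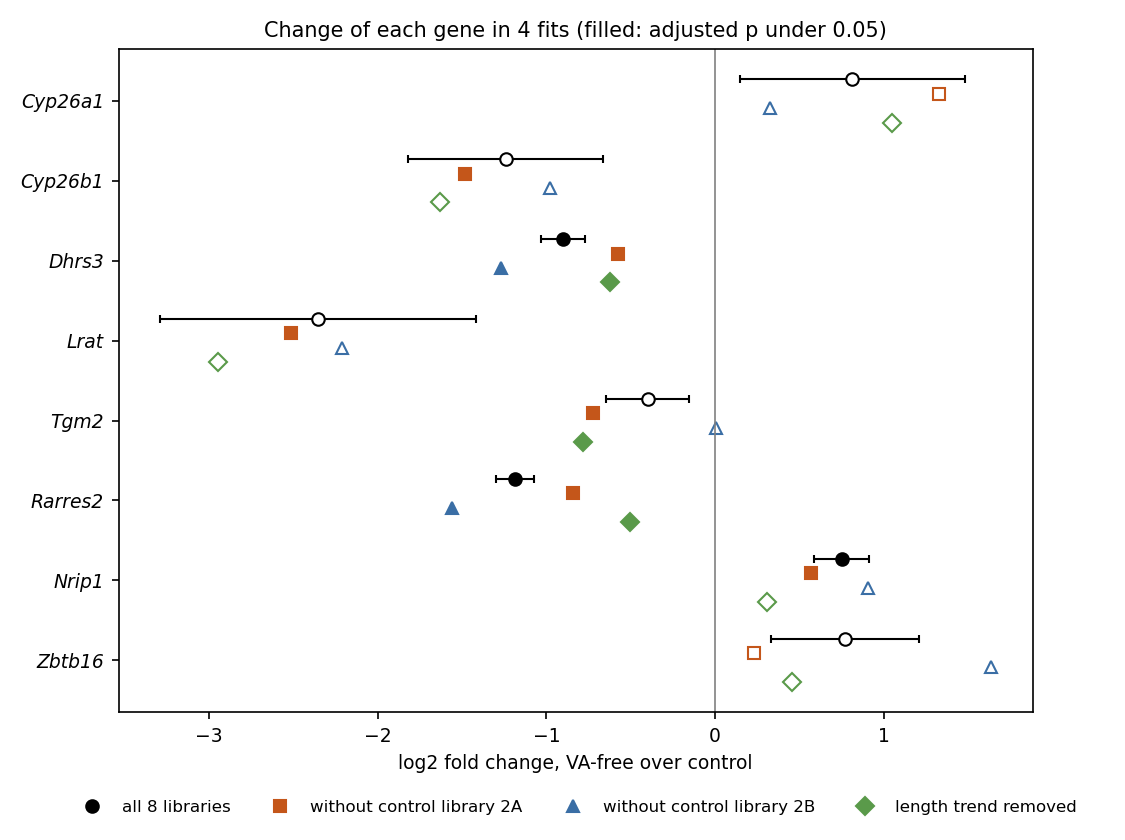
Log2 fold change (VA-free over control) of each gene with all 8 libraries (black, bars ± 1 SE), without control library 2A (orange), without control library 2B (blue) and with the length trend of each mouse removed (green); filled symbols passed an adjusted p of 0.05. Dhrs3 and Rarres2 are filled and below 0 in all 4 fits, Cyp26b1 and Lrat are filled without library 2A alone, and Nrip1 lies above 0 in all 4 but is open without 2B and without the length trend.

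Nrip1 (GRCm38 chr16:76287400-76373827, minus strand, ENSMUSG00000048490), whose product recruits deacetylases to ligand-bound nuclear receptors and limits mitochondrial gene expression in muscle and fat, was the gene that rose. Its levels were 121, 114, 92.0 and 104 CPM in the VA-free libraries and 61.6, 86.9, 42.2 and 75.3 CPM in the control libraries. Every VA-free library was above every control library, as for 19.8% of all genes tested, though VA-free 3A and control 1B were close. The mean was 113 ± 12.5 CPM (SD, n = 3) against 66.8 ± 12.8 CPM (SD, n = 2), which gave a log2 fold change of 0.75 (SE 0.16, edgeR adjusted p = 0.0101). The call was lost without control library 1A (0.61, adjusted p = 0.0649), without control library 2B (0.91, adjusted p = 0.0669) and once the trend with length was removed (0.31, adjusted p = 0.152). Its mean effective length was 3553 bases, against a median of 2081 bases for all genes tested. The first of its promoter windows held 3 single half-sites and no direct repeat. Its 250 upstream bases, chr16:76373828-76374077 on the minus strand, are shown for comparison with the Cyp26a1 promoter, with half-sites in capitals.
Nrip1: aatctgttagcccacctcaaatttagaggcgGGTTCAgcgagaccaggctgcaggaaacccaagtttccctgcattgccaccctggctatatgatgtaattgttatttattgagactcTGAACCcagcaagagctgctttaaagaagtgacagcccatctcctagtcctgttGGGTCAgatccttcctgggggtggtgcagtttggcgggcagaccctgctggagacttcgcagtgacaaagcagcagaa
Unlike the pair in the Cyp26a1 promoter, these half-sites were not spaced as any of the repeats searched.

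Zbtb16 encodes PLZF, a zinc finger repressor known from its fusion with RARA in leukaemia (GRCm38 chr9:48654297-48836222, minus strand, ENSMUSG00000066687). It was at 25.5, 29.5, 60.9 and 62.0 CPM in the VA-free libraries and at 11.4, 19.6, 9.24 and 51.4 CPM in the control libraries. Both libraries of VA-free mouse 3 and control library 2B were high, and the groups overlapped. The mean was 39.3 ± 19.9 CPM (SD, n = 3) against 23.1 ± 10.4 CPM (SD, n = 2). The log2 fold change was 0.77 and did not pass (SE 0.44, edgeR adjusted p = 0.209). It was 0.23 without control library 2A and 1.64 without 2B.

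**Figure D3:**
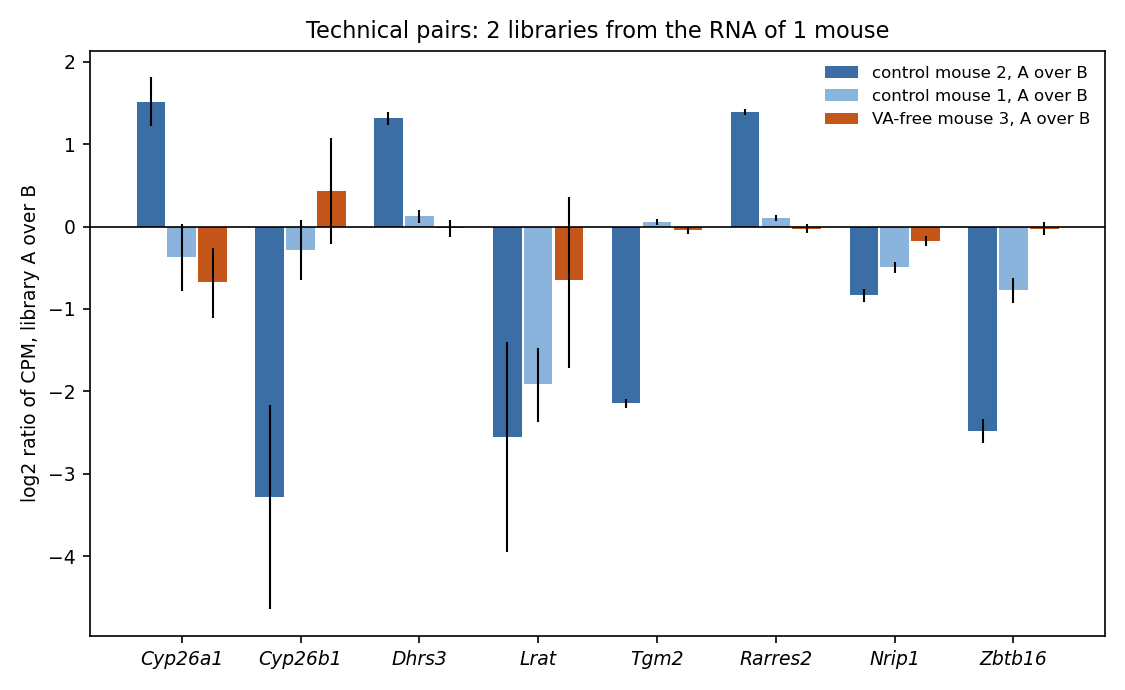
Log2 ratio of CPM between libraries A and B made from the RNA of a mouse, for control mouse 2 (dark blue), control mouse 1 (light blue) and VA-free mouse 3 (orange); vertical lines are 95% exact intervals that cover counting error only. In control mouse 2, library A was above B for Cyp26a1, Dhrs3 and Rarres2 and below it for the other 5 genes, from 9.69-fold lower for Cyp26b1 to 2.85-fold higher for Cyp26a1.

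Spread within the technical pairs differed between mice. Cyp26a1, Cyp26b1 and Lrat, the genes of fewest counts, differed by 1.60-, 1.35- and 1.57-fold between the libraries of VA-free mouse 3 and by 1.29-, 1.22- and 3.76-fold between those of control mouse 1. In VA-free mouse 3, Dhrs3, Tgm2, Rarres2 and Zbtb16 differed between libraries by 1.01- to 1.03-fold, and Nrip1 by 1.13-fold. In control mouse 1 these 5 genes differed by 1.04- to 1.71-fold, Zbtb16 the most. In control mouse 2 each of the 8 genes differed by 1.78-fold, the value of Nrip1, or more: Rarres2 by 2.62-fold, Tgm2 by 4.42-fold, Zbtb16 by 5.56-fold, Lrat by 5.86-fold and Cyp26b1 by 9.69-fold. The ratio of Cyp26b1 rests on 76 and 7 counts (95% interval for counting error 4.48 to 24.9), whereas that of Tgm2 rests on 13848 and 2793 counts (4.25 to 4.61). Library 2A was the higher of the pair for Cyp26a1, Dhrs3 and Rarres2 and the lower for the other 5 genes.

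Without control library 2A, 5 of the 8 genes passed as lower (Cyp26b1, Dhrs3, Lrat, Tgm2 and Rarres2) and 1 as higher (Nrip1), where 21.6% of all genes tested were called lower and 18% higher. The same 5 genes then had all 4 VA-free libraries below the 3 control libraries that were left, as had 26% of all genes, and Nrip1 had them above, as had 24.8%. After removal of the length trend 3 genes passed as lower (Dhrs3, Tgm2 and Rarres2) and none as higher in edgeR, beside 17.8% and 12.3% of all genes. With all libraries, 2 genes did not overlap between groups downward and 1 upward on the CPM scale, beside 21.5% and 19.8% of all genes. Cyp26a1 and Zbtb16 overlapped between the diets with and without library 2A.

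**Figure D4:**
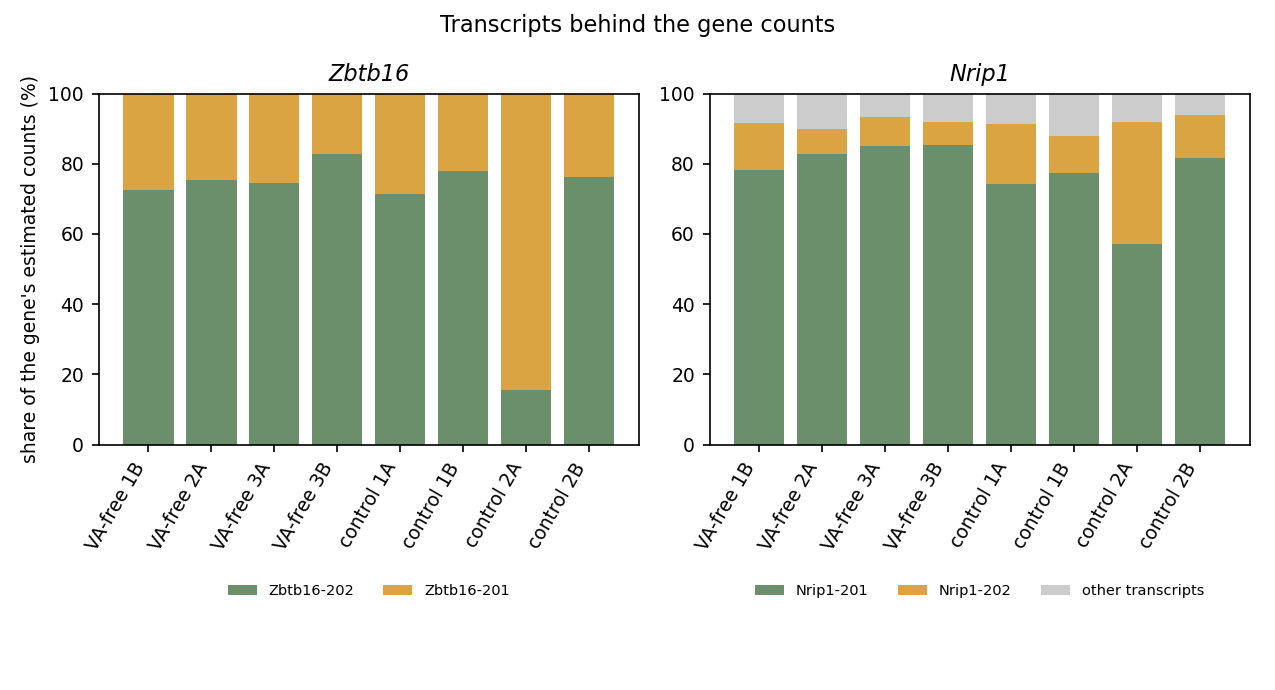
Share of the estimated counts of Zbtb16 and Nrip1 assigned to each transcript in each library. In control library 2A the longer transcripts Zbtb16-201 and Nrip1-202 hold 84.4% and 34.8% of the counts, against at most 28.7% and 17.1% in the other 7 libraries.

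Transcript shares of Zbtb16 and Nrip1 also set library 2A apart. Zbtb16 has annotated transcripts of 5114 bases (Zbtb16-201) and 2505 bases (Zbtb16-202), and the longer held 17.1% to 28.7% of its counts in 7 libraries but 84.4% in control library 2A. For Nrip1, the transcript of 7868 bases (Nrip1-202) held 6.71% to 17.1% in 7 libraries and 34.8% in library 2A, the larger part being on Nrip1-201 of 4529 bases. Shares of transcripts that share most of their bases are estimates by the aligner, and the diets overlapped in those of Zbtb16 and Nrip1. Among minor transcripts of the genes called lower, Dhrs3-206 held 8.16% or more in VA-free and 7.95% or less in control libraries. Rarres2-202, which retains an intron, held 2.52% or more against 1.75% or less. Every other transcript of Dhrs3 and Rarres2 overlapped between the diets in its share, and these differences in share were not tested.

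Among the other genes of the pathway, 71 distinct genes in 7 lists, 66 were tested, of which 15 fell and 17 rose, with a median log2 fold change of 0.02 against 0.003 for all genes. These counts are near the 22.5% and 18.9% called lower and higher over all genes. Without control library 2A, 17 of them fell and 14 rose, and without library 2B of the same mouse 11 fell and 7 rose. Calls over all genes dropped too without 2B, to 2863 lower and 1613 higher of 17769, from 4056 and 3403 of 17997.

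Genes for retinoid uptake and binding had the lowest median of the 7 lists: 6 of 7 tested fell, with a median log2 fold change of -2.94. Rbp7, a cellular retinol-binding protein typical of capillary endothelium and fat, was at 7.22 ± 0.936 CPM against 95.9 ± 0.346 CPM (log2 fold change -3.73, SE 0.15). Fabp5, a fatty acid carrier that also binds RA, was at 12.3 ± 1.15 CPM against 81.6 ± 43.4 CPM (-2.73, SE 0.31). Stra6, the membrane receptor for retinol-binding protein, was at 0.122 ± 0.128 CPM against 3.31 ± 0.573 CPM (-4.67, SE 0.94). Its VA-free level was close to a floor of 3 counts in a library, 0.032 to 0.0681 CPM. The SDs here are over 3 and 2 mice, as in the rest of the text. The libraries of a mouse were added first, so a small control SD does not show that libraries 2A and 2B were alike. For Rbp7 the log2 fold change was -3.34 without library 2A and -4.14 without 2B. The same count, 6 of 7, fell without library 2A and after removal of the length trend. Without library 2B, 6 of 8 tested fell, and Stra6 was not among them (-4.22, adjusted p = 0.0611). The endothelial marker sums given above moved in the same direction, and their part in this group was not tested.

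Of 19 genes for enzymes that act on retinol or retinal, in either direction, or cleave carotenoids, 3 fell and 2 rose. Adh1, an alcohol dehydrogenase acting on retinol, was at 115 ± 19.4 CPM against 284 ± 62.3 CPM (log2 fold change -1.30, SE 0.19), and Rdh14, a retinol dehydrogenase, at 17.9 ± 1.07 CPM against 26.3 ± 1.76 CPM (-0.55, SE 0.14). In the other direction, Aldh1a2, which makes RA from retinal, was at 23.3 ± 5.26 CPM against 12.4 ± 1.51 CPM (0.91, SE 0.23), and Rdh13 at 18.1 ± 0.508 CPM against 11.2 ± 0.398 CPM (0.69, SE 0.15). Rdh14 and Aldh1a2 did not pass without library 2A (adjusted p = 0.0716 and 0.0936), while Adh1 (-0.87) and Rdh13 (0.53) did. Of 5 genes of other retinoid clearance and storage that were tested, 1 rose: Por, the reductase that supplies electrons to CYP26 and other cytochrome P450 enzymes, was at 271 ± 36.6 CPM against 156 ± 23.3 CPM (0.80, SE 0.17). Dgat1, which can also esterify retinol, was at 36.8 ± 2.84 CPM against 31.6 ± 3.01 CPM and did not pass (0.22, SE 0.13). After removal of the length trend Dgat1 passed as higher (0.63, edgeR adjusted p = 0.0156), with 2 of the 5 genes higher and 1 lower. Its log2 fold change without control library 2B was 0.005.

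Most receptor and coregulator genes that passed the test were higher. Of the 6 retinoid receptor genes, Rxra, Rxrb, Rarg and Rarb rose and Rxrg fell. Rxra was at 91.8 ± 7.76 CPM against 35.4 ± 4.09 CPM (log2 fold change 1.37, SE 0.14), Rarg at 57.7 ± 9.37 CPM against 32.8 ± 11.1 CPM (0.81, SE 0.24), and Rxrb at 48.9 ± 2.65 CPM against 26.1 ± 8.57 CPM (0.91, SE 0.21). Rarb, whose own transcription RA induces, was at 14.7 ± 2.23 CPM against 8.88 ± 2.27 CPM (0.72, SE 0.23). Without control library 2A 3 receptor genes rose, Rarg not passing (adjusted p = 0.0502), and without library 2B no receptor gene passed in edgeR. Fewer of all genes passed without 2B as well, as given above. The log2 fold changes without 2B were wider for Rxra (1.97, SE 0.65), Rxrb (1.30, SE 0.61), Rarg (1.27, SE 0.72) and Rxrg (-1.32, SE 0.39) and smaller for Rarb (0.57, SE 0.31), each with a larger SE than with all libraries. Of 12 coregulators of nuclear receptors 7 rose and none fell in edgeR, with 5 higher without library 2A and 4 without 2B. After removal of the length trend 5 were higher and 1 lower, Crebbp, a histone acetyltransferase gene related to Ep300, which went from 0.26 to -0.41 (adjusted p = 0.0377). Ncoa1, a coactivator, was at 489 ± 7.89 CPM against 221 ± 14.3 CPM (1.15, SE 0.11) and the histone acetyltransferase gene Ep300 at 119 ± 12.6 CPM against 52.7 ± 4.02 CPM (1.17, SE 0.14). Tbl1x, a subunit of the corepressor complexes, was at 152 ± 3.28 CPM against 109 ± 10.6 CPM (0.48, SE 0.11), with a log2 fold change of -0.11 after removal of the length trend.

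Of 14 other RA-responsive genes tested, 6 fell and 3 rose, and without control library 2A 7 fell and 3 rose. Lamb1, a laminin chain induced by RA in embryonal carcinoma cells, was at 223 ± 34.0 CPM against 77.5 ± 0.550 CPM (log2 fold change 1.52, SE 0.16). Cd38, an NAD-consuming enzyme with a known RA response element, was at 2.94 ± 0.425 CPM against 33.6 ± 8.23 CPM (-3.52, SE 0.22). Rarg, described above, was another of the most abundant genes that passed. Among genes related to the 8 by family or as partners, 2 fell and 2 rose of 8 tested. The chemerin receptor genes Cmklr1 and Gpr1 were at 0.497 ± 0.162 CPM against 1.504 ± 0.00903 CPM (-1.60, SE 0.45) and at 0.690 ± 0.272 CPM against 9.34 ± 6.38 CPM (-3.74, SE 0.54), both past the threshold. Despite the small control SD, the log2 fold change of Cmklr1 was -1.97 without control library 2A and -1.14 without 2B. Ccrl2, a further chemerin receptor and the most abundant of the 3, was at 30.9 ± 0.708 CPM against 35.6 ± 0.879 CPM and did not pass (-0.21, SE 0.12); like Crebbp above, it was chosen for mention after its values were seen. Zbtb20, a zinc finger relative of Zbtb16, was at 828 ± 34.9 CPM against 486 ± 65.5 CPM (0.77, SE 0.13), and Tgm1, a transglutaminase of keratinocytes, at 0.608 ± 0.0980 CPM against 0.0737 ± 0.0506 CPM (3.03, SE 0.72). The control level of Tgm1 was close to a floor of 3 counts in a library, 0.032 to 0.0681 CPM. After removal of the length trend, Cmklr1 (log2 fold change -1.03, adjusted p = 0.127), Rxrg (-0.97, 0.0518), Rdh13 (0.42, 0.0706) and Rdh14 (-0.28, 0.177) did not pass in edgeR; the value of Rxrg was close to its -1.06 with all libraries and no such removal. Without control library 2B, Por (0.99, adjusted p = 0.0601), Rdh14 (-0.80, 0.0519), Tbl1x (0.50, 0.061), Zbtb20 (0.63, 0.0837), Tgm1 (3.28, 0.092) and Cmklr1 (-1.14, 0.208) did not pass either, and 4 of the other RA-responsive genes fell and 1 rose.

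**Figure D5:**
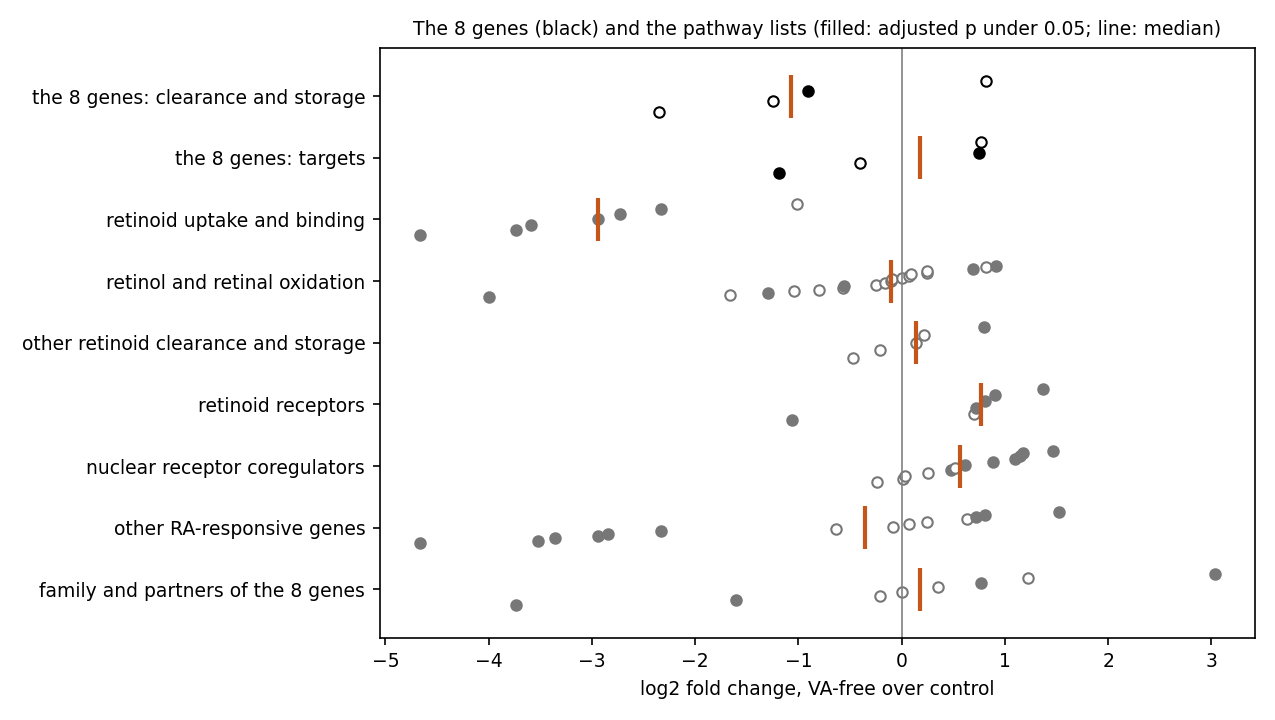
Log2 fold change (VA-free over control) of the 8 genes in black and of the other pathway genes in grey, by list; filled circles passed an adjusted p of 0.05 and the orange line is the median of the list. The retinoid uptake and binding list lies lowest, with a median of -2.94, and the receptor list highest, with a median of 0.77.

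The genes most like each of the 8 over the 8 libraries were found by Pearson's r of log2(CPM + 1) among 9600 or 9601 other genes averaging 10 CPM or more. These are descriptions only, since the 8 points come from 5 mice and share technical pairs, library composition and depth. Dhrs3 was most like Arpc5l (r = 0.997) and Ubxn2a (0.995), and Rarres2 most like Chmp2a (0.997) and Gnpda2 (0.996). All 4 of these had their highest level in control library 2A, as Dhrs3 and Rarres2 had. Nrip1 was most like Zfp710 (0.995) and Pomt2 (0.991), both lowest in library 2A. Cyp26b1 was nearest to Cttnbp2nl (0.988) and Tgfb1 (0.987), Tgm2 to Marcksl1 (0.989) and Mrfap1 (0.989), Zbtb16 to Gabarapl1 (0.983) and Mcm7 (0.975), Lrat to Efnb1 (0.995) and Usb1 (0.952), and Cyp26a1 to Acss2 (0.955) and Pcca (0.921).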

How the data were processed

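RNA-seq of sorted MuSCs was read from 8 libraries of 5 mice. The authors pseudo-aligned reads with Kallisto 0.46.2 to Ensembl 96 transcripts of GRCm38 and deposited estimated counts per transcript without normalization, together with TPM values, which keep no depth. The study compared the diets with tximport and DESeq2. Here 116816 of 118489 transcripts were matched to genes (GENCODE M21), leaving 0.647% to 0.756% of counts per library unmatched and unused. Estimated counts were added per gene and mouse, rounded and tested with edgeR 4.0.16 (filterByExpr, TMM, the quasi-likelihood F test and p-values adjusted by Benjamini-Hochberg to a threshold of 0.05) in R 4.3.3, after a test on simulated data. Levels are CPM; SEs are the log2 fold change over the square root of F. A floor of 3 counts was 0.032 to 0.0681 CPM. Intervals are exact (Clopper-Pearson, 95%) and cover counting error only. The labels do not say whether mice shared cages or litters, so p-values measure the spread between these mice. Alternatives used limma 3.58.1, DESeq2 1.42.0, other filters, scalings, pooling, length corrections, TPM with a pseudocount of 1 or 0.1, a replicate block, and each mouse or library left out. The 8 genes and the lists were chosen with earlier results of these data known. All 8 are named, with up to 4 of the most abundant genes that passed in each list (where fewer than 2 passed, the 2 most abundant) and the 2 most similar genes. Results that this rule would also name for some pathway genes are not reported here.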

Additional observations from a re-analysis of the deposited data

Results flagged for a closer look

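Of the 16 groups of 4 libraries examined (8 genes, 2 diets), 2 held a library whose gap to its nearest neighbour took up more of the group's range than Dixon's 95% critical value for 4 values allows. Cyp26a1 was at 7.19 CPM in control library 2A, against 1.94 to 2.52 CPM in the other control libraries. Tgm2 was at 58.1 CPM in the same library, against 224 to 257 CPM in the others. Both lie in the library that stood apart over all genes. Chance flags about 1 in 20 such groups, and the 4 libraries of a diet come from 2 or 3 mice and are not independent.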

How the results depend on the processing

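Over 24 alternatives, Dhrs3 and Rarres2 passed as lower in all 24, with log2 fold changes of -1.27 to -0.50 and -1.56 to -0.50. Nrip1 was higher in all 24 and passed in 21. Cyp26a1 passed in 1, Zbtb16 in 1, Tgm2 in 2, Cyp26b1 in 2 of 23 and Lrat in 5 of 23. Tgm2 turned to 0.009 with 1 library per mouse and ranged from -0.73 to 0.005 when a mouse or library was left out (0.005 without control library 2B). The 2 genes called lower became 2 to 5 when a mouse or library was left out (4 without control mouse 2, 5 without control library 2A), and the 1 called higher became 0 to 1 (0 without control library 1A or 2B), 0 with the length trend removed and 2 with 1 library per mouse, where Zbtb16 passed (1.93). Of all genes, 4056 were called lower and 3403 higher; 2156 were higher with 1 library per mouse, 2216 with the length trend removed, and 1613 to 3678 when a mouse or library was left out (1613 without control library 2B). On TPM with a pseudocount of 1 or 0.1, 2637 or 2631 were lower and 5799 or 5867 higher, with the median of all genes shifted by 0.19 or 0.35, so Tgm2 (-0.01) and Rarres2 (-0.73) are read relative to it. The labels do not say that same-numbered mice of the 2 diets were paired. Deviations of same-numbered mice from the mean of their diet correlated at -0.065 and 0.01 with 2 pairs. With 2 control mice these deviations mirror each other, so the 2 values are not separate and cannot decide whether mice were paired. With the replicate block 3 of the 8 genes were lower and 2 higher (Cyp26a1 1.17, adjusted p = 0.0417; Lrat -2.83, adjusted p = 0.0263), and 2903 and 2339 of all genes. Causes were not tested. With 2 control mice, genes of few counts (Lrat, Cyp26b1) are the least certain.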
